A study of Mus musculus with 6 samples.

Results

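The skeletal muscle myosin chains were examined in injured Achilles tendon tissue as 10 genes of the 18099 in the expression table. They were chosen by name as the myosin heavy and light chains that mark fibre types, namely 3 slow genes (*Myh7*, *Myl2* and *Myl3*), 2 developmental genes (*Myh3* and *Myh8*) and 5 fast genes (*Myh1*, *Myh2*, *Myh4*, *Myl1* and *Mylpf*). The RNA came from repair tissue of neonatal mice, in which the tendon of each leg had been cut, and the study gives the time of collection as a week after injury. The LysM-Cre; Ampkα1fl/fl group held 3 mice with Cre expressed from the lysozyme M promoter, which is active in macrophages and other myeloid cells, and 2 floxed alleles of the AMPKα1 gene. The control group held 3 Ampkα1fl/fl littermates, so the floxed alleles and the injury were common to both groups. The libraries are called control 1 to 3 and LysM-Cre 1 to 3 by the replicate numbers of the labels. The labels do not say that libraries of the same number are pairs. Whole tissue was sequenced, so fewer cells of a type and less RNA per cell cannot be told apart.

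Each muscle myosin molecule is built from a pair of heavy chains, whose heads bind actin and split ATP, and from essential and regulatory light chains wrapped around the necks of the heads. *Myh8* (perinatal) and *Myh3* (embryonic) serve fibres in development, *Myh2* (IIa), *Myh1* (IIx) and *Myh4* (IIb) serve fast fibres of adult muscle, and *Myh7* (β) serves slow fibres and the heart. *Mylpf* is the fast regulatory and *Myl1* the fast essential light chain, and *Myl2* and *Myl3* are the corresponding chains of slow fibres and the heart ventricle. In neonatal limb muscle the developmental heavy chains give way to the adult ones. Tendon cells use non-muscle myosins, and the calf muscles join the Achilles tendon next to the region that was cut.

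The total was between 18076805 and 19479887 estimated reads per library. The tissue carried strong tendon markers in all 6 libraries, with *Col1a1* between 44242 and 52594 CPM (reads scaled to a common library total), *Tnmd* between 1546 and 2049 CPM and *Scx*, a tendon transcription factor, between 101 and 141 CPM. As checks of the labels, *Lyz2*, the lysozyme M gene that carries the Cre, was between 390 and 425 CPM in controls and between 0.432 and 0.811 CPM in LysM-Cre libraries. *Prkaa1*, the targeted AMPKα1 gene, differed by -0.08 ± 0.09 on the log2 scale (SE; edgeR quasi-likelihood adjusted p = 0.744), in RNA of all cells of the tissue.

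The 5 fibre-type promoters below are shown as background and represent the slow, developmental and fast classes. Each is the 120 bases before a transcription start in RefSeq's GRCm38.p6 annotation, and the table held promoters for 10 of the 10 members, in 12 windows. Capitals mark matches to letters searched on both strands, which were the E-box CANNTG, the TATA letters TATAAA, the MCAT letters CATTCC, and the CArG and MEF2 motifs by name.
Myl3, chr9:110763558-110763677, + strand: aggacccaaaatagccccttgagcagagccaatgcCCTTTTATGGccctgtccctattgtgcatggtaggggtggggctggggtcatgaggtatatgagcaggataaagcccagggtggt
Myh7, chr14:54994550-54994669, - strand: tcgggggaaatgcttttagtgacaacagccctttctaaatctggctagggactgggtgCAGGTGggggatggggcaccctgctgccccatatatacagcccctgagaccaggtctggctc
Myh8, chr11:67277004-67277123, + strand: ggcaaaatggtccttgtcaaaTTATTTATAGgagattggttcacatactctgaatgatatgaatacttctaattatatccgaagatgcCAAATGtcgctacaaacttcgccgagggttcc
Myh4, chr11:67237692-67237811, + strand: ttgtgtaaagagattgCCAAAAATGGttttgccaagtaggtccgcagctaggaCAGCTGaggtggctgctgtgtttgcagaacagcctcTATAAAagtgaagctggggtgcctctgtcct
Mylpf, chr7:127211488-127211607, + strand: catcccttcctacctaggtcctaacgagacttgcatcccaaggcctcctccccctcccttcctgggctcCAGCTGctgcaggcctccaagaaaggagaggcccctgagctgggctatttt
In the 250 bases before the start, the E-box was present in 10 of 12 member windows and in 66.2% of 32851 mouse promoters. *Myh7* and *Myl2* each had a further window, and the *Myh7* windows overlap and share an E-box, so windows are not separate genes. TATAAA was present in 6 of 12 windows against 12.4% of all promoters, and CATTCC in 5 of 12 against 12.6%. The CArG motif was found in the windows of *Myh4* and *Myl3* and in 1.47% of all promoters, and MEF2 in those of *Myh1*, *Myh4* and *Myh8* and in 1.69%. MEF2 matches overlapped TATAAA read on the opposite strand. The window of *Myh2* held no match to the 5 motifs. These matches describe letters in the windows, and binding was not measured.

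Muscle myosin transcripts were a small and highly variable part of the RNA. The 10 genes together took 0.0093% of reads in control 1, 0.0292% in control 2 and 0.155% in control 3. They took 0.167% in LysM-Cre 1, 0.0539% in LysM-Cre 2 and 0.461% in LysM-Cre 3. The order of the libraries was nearly the same for every member, and control 3 lay among the LysM-Cre libraries. In CPM, 10 of 10 members were lowest in control 1 and 10 of 10 were highest in LysM-Cre 3. The median range over the 6 libraries was 6.55 on the log2 scale for the members against 0.38 for all 14261 genes tested.

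Between transcripts, levels were compared as TPM, which is scaled to transcript length. Among heavy chains *Myh8* was the most abundant in 6 of 6 libraries, at 7.97, 23.1 and 140 TPM in controls and 162, 36 and 408 TPM in LysM-Cre libraries. *Myh1* was the next in all 6 libraries, at 5.89, 15.6 and 92.6 TPM in controls and 119, 34.8 and 177 TPM in LysM-Cre libraries. *Myh2*, *Myh3*, *Myh4* and *Myh7* followed in an order that changed from library to library, so their neighbours in rank cannot be ordered beyond the spread between mice. The heavy chains of perinatal and IIx fibres therefore led in both groups.

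Among light chains *Mylpf* led in 6 of 6 libraries, at 101, 293 and 1486 TPM in controls and 1480, 570 and 4433 TPM in LysM-Cre libraries. *Myl1* was just below it in each library, at 89.8, 269 and 1384 TPM in controls and 1260, 455 and 3726 TPM in LysM-Cre libraries. These fast light chains rose and fell together from library to library. *Myl2* and *Myl3*, the slow light chains, were at most 280 and 321 TPM, both in LysM-Cre 3. Summed TPM of the 4 light chains was between 7.96 and 11.9 times that of the 6 heavy chains, and the essential chains stood at 0.781 to 0.928 of the regulatory chains.

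**Figure D1:**
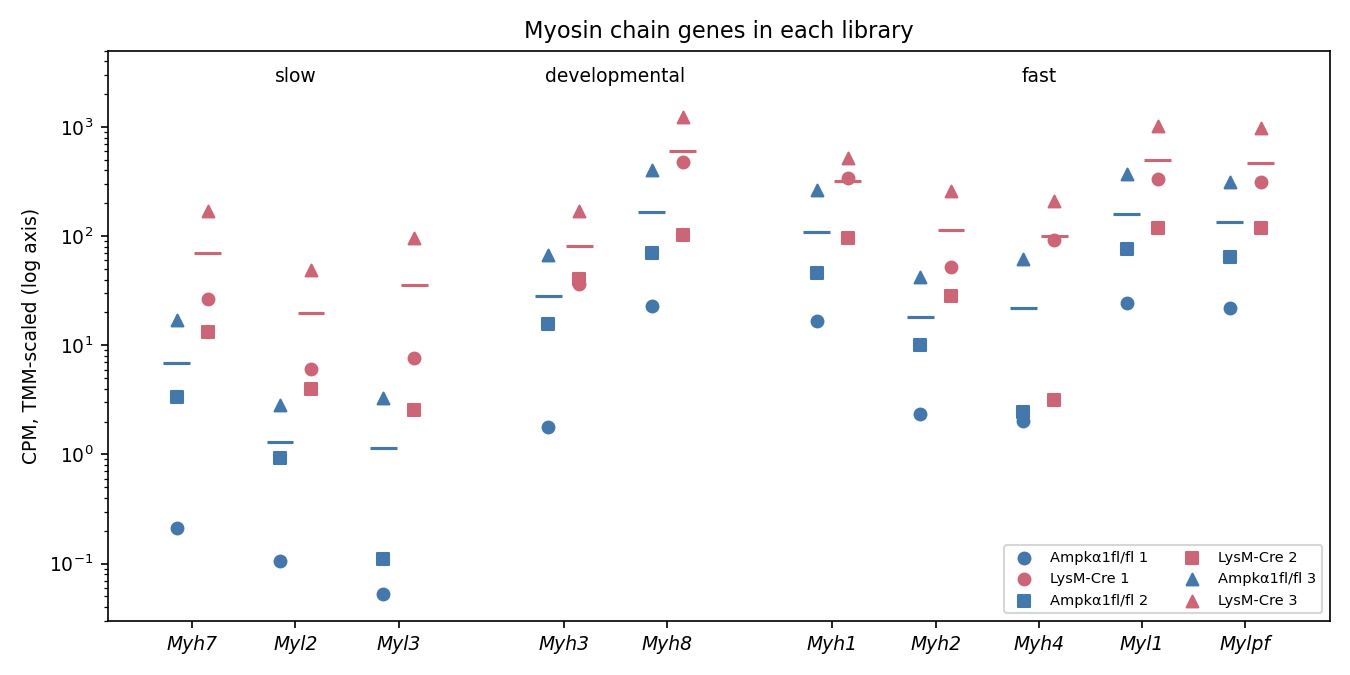
CPM of each member in each library (log axis, TMM-scaled), with controls in blue and LysM-Cre libraries in red, marker shapes for the replicate number and bars for the group means of 3 mice. Every LysM-Cre symbol sits above the control symbol of the same shape, and only for *Myl2* do the 3 red symbols all lie above the 3 blue ones.

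The first question was whether the members differed between LysM-Cre and control tendons. None of the 10 members passed edgeR's quasi-likelihood test at an adjusted p of 0.05, where 0.898% of all genes tested were called, and 0 passed with DESeq2, which called 4.77%. All 10 estimates were higher in the LysM-Cre group, as were 7050 of all 14261 genes tested. Their median was 2.03 on the log2 scale, against -0.00 over all genes. At an unadjusted p under 0.05 there were 3 members, *Myl2*, *Myl3* and *Myh7*, which are the slow class, and 14.5% of all genes. With DESeq2 there were 4 such members, *Myh2* being the other. The count was 10 of 10 with replicate blocks, where 15.9% of all genes were at this level, and 10 of 10 without control 3, where 16.1% were. Without control 2 or LysM-Cre 3 it was 0. Each LysM-Cre library exceeded the control of the same number in 10 of 10 members, compared with 19.1% of all genes. The labels do not pair these libraries, and the members rose and fell together, so the 10 are not separate observations. In 9 of 10 members control 3 was above LysM-Cre 2, as in 54% of all genes.

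The slow chains had the highest estimates. *Myl3*, the slow essential light chain, was at 0.0529, 0.109 and 3.29 CPM in controls and 7.72, 2.54 and 96.4 CPM in LysM-Cre libraries. The first of these values came from 1 read and the next from 2 reads, both under the 3 reads taken as the floor. LysM-Cre 2 was below control 3, so the groups overlapped. The log2 fold change was 4.95 ± 1.69 (SE; n = 3 against 3, edgeR adjusted p = 0.241). When replicate numbers entered the model as blocks, a pairing that the labels do not state, it was 5.04, with an edgeR adjusted p of 0.010. No other member was called in that model, which called 0.33% of all genes.

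*Myl2*, the slow regulatory light chain, was at 0.106, 0.929 and 2.85 CPM in controls and 6.10, 4.0 and 48.8 CPM in LysM-Cre libraries. The value of control 1 came from 2 reads, under the 3 reads taken as the floor, and that of control 2 from 17 reads. *Myl2* was the only one of the 10 members whose groups did not overlap, with 8.94% of all genes placed that way with LysM-Cre above. Its log2 fold change was 3.92 ± 1.25 (SE; edgeR adjusted p = 0.213). *Myh7*, the slow heavy chain, was at 0.212, 3.33 and 17.1 CPM in controls and 26.3, 13.1 and 169 CPM in LysM-Cre libraries. Control 3 was above LysM-Cre 2 for this gene, and the log2 fold change was 3.34 ± 1.33 (SE; edgeR adjusted p = 0.313).

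Single libraries weighed heavily on these values. Without LysM-Cre 3 the log2 fold changes were 2.16 for *Myl3*, 1.97 for *Myl2* and 1.52 for *Myh7*. Without control 3 they were 8.67 for *Myl3*, 5.24 for *Myl2* and 5.30 for *Myh7*. None of the 3 passed the test in either fit, and all 3 stayed higher in the LysM-Cre group.

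The developmental heavy chains had estimates of less than 2 standard errors. *Myh8* was at 23.0, 69.6 and 406 CPM in controls and 477, 102 and 1224 CPM in LysM-Cre libraries. Its log2 fold change was 1.86 ± 1.18 (SE; edgeR adjusted p = 0.530). *Myh3* was at 1.80, 15.8 and 67.5 CPM in controls and 36.5, 40.5 and 169 CPM in LysM-Cre libraries, with a log2 fold change of 1.54 ± 1.10 (SE; edgeR adjusted p = 0.587). For both genes control 3 lay inside the range of the LysM-Cre libraries. Without LysM-Cre 3 the log2 fold changes were 0.80 for *Myh8* and 0.44 for *Myh3*, and without control 3 they were 3.70 and 3.23.

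The fast heavy chains overlapped between groups as well. *Myh1* was at 16.6, 46.1 and 263 CPM in controls and 343, 96.4 and 519 CPM in LysM-Cre libraries, with a log2 fold change of 1.56 ± 1.02 (SE; edgeR adjusted p = 0.543). *Myh2* was at 2.33, 10.1 and 42.4 CPM in controls and 52.6, 28.3 and 262 CPM in LysM-Cre libraries, with a log2 fold change of 2.64 ± 1.14 (SE; edgeR adjusted p = 0.355). *Myh4*, the heavy chain of the fastest fibres, had the most uneven profile of the class. It was at 2.01, 2.46 and 62.1 CPM in controls and 92.1, 3.14 and 209 CPM in LysM-Cre libraries. LysM-Cre 2 was thus close to controls 1 and 2, and the log2 fold change was 2.19 ± 1.56 (SE; edgeR adjusted p = 0.583). The fast light chains gave log2 fold changes of 1.81 ± 1.08 for *Mylpf* (SE; edgeR adjusted p = 0.502) and 1.64 ± 1.09 for *Myl1* (SE; edgeR adjusted p = 0.548). Without LysM-Cre 3 the fast log2 fold changes were between 0.53 (*Myl1*) and 1.15 (*Myh2*), and without control 3 between 3.29 (*Myl1*) and 5.50 (*Myh4*).

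The members moved with the rest of the sarcomere, the repeating unit of muscle fibres. A muscle score was taken as the mean log2 CPM of 19 sarcomere genes. They include the fast troponins *Tnnt3*, *Tnni2* and *Tnnc2*, but no member and no slow troponin. The score was 1.96, 3.52 and 5.77 in controls and 5.93, 4.37 and 7.40 in LysM-Cre libraries. Over these 6 libraries Pearson's r with the score was between 0.931 (*Myh4*) and 0.9995 (*Mylpf*). The genes of a library share its depth and its muscle RNA content, and the latter differed widely between libraries. Summed CPM of the 19 genes ranged from 165 to 2611 in controls and from 969 to 7961 in LysM-Cre libraries, and 19 of 19 were higher in the LysM-Cre group. By edgeR and by DESeq2 0 of the 19 were called, and 0 had an unadjusted edgeR p under 0.05. The part of muscle content in the members' differences was examined by adding the score to the edgeR fit.

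With the score as a covariate all estimates were lower, and those of the slow chains stayed highest. The score holds the fast and not the slow troponins, so it follows fast chains more closely by its make-up. The fit therefore cannot separate muscle content from fibre type. The log2 fold changes were then 1.69 for *Myl3*, 1.56 for *Myl2* and 1.00 for *Myh7* (edgeR adjusted p = 0.231, 0.347 and 0.394). They were 0.60 for *Myh2*, 0.13 for *Myh3* and 0.09 for *Myh1*. They lay below 0 for *Mylpf* (-0.05), *Myh8* (-0.23), *Myl1* (-0.24) and *Myh4* (-0.43). None of the members was called in this fit, which called 0.421% of all genes.

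**Figure D2:**
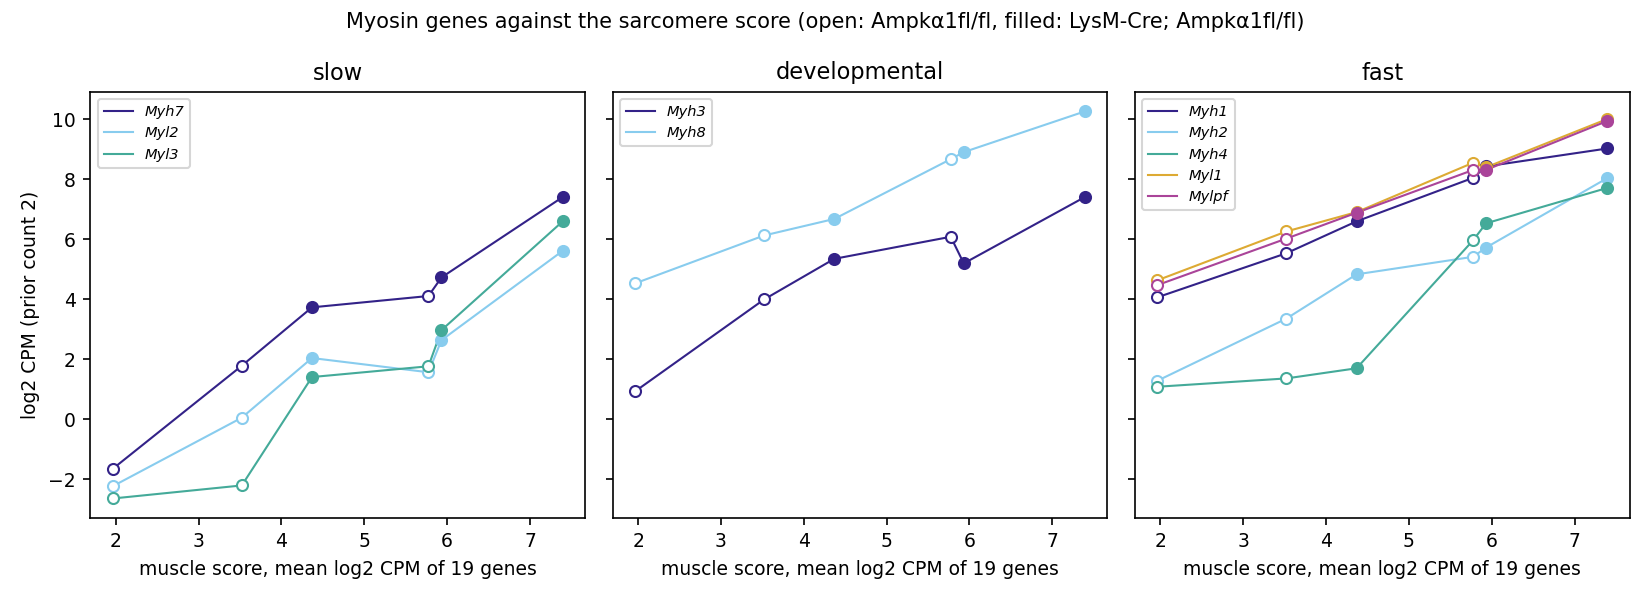
Log2 CPM of each member (prior count 2) against the muscle score of the library, in 3 panels for the slow, developmental and fast classes. Open circles are the 3 controls and filled circles the 3 LysM-Cre libraries, joined in order of score from 1.96 to 7.40, and each gene climbs with the score, with local drops for *Myl2*, *Myh3* and *Myl1* between neighbouring libraries.

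Fibre-type shares compare the members within a library and so are not scaled by its total of muscle RNA. The slow genes took 0.399%, 1.51% and 1.5% of the reads of the 10 members in controls and 2.37%, 3.73% and 6.68% in LysM-Cre libraries. All 3 LysM-Cre libraries were above all 3 controls. The means were 1.13% ± 0.637 (SD, n = 3) and 4.26% ± 2.20 (SD, n = 3). The difference of 3.13 percentage points had the smallest p that 3 against 3 libraries allow (exact permutation test, two-sided, p = 0.1, Benjamini-Hochberg adjusted over 13 shares 0.433). The share in control 1 rested on 7 of 1754 reads, with an exact 95% binomial interval from 0.161% to 0.821%, and that of LysM-Cre 3 on 5812 of 87000 reads, from 6.52% to 6.85%. These intervals cover counting error only.

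The slow share was higher in heavy and light chains alike. *Myh7* took 0.461%, 2.26% and 1.99% of heavy chain reads in controls and 2.56%, 4.64% and 6.62% in LysM-Cre libraries (exact permutation test, p = 0.1, adjusted 0.433). Control 2 and LysM-Cre 1 were neighbours, and their exact binomial intervals, from 1.73% to 2.90% and from 2.35% to 2.79%, overlapped. *Myl2* and *Myl3* together took 0.339%, 0.730% and 0.883% of light chain reads in controls and 2.07%, 2.69% and 6.75% in LysM-Cre libraries (exact permutation test, p = 0.1, adjusted 0.433). Here the closest libraries, control 3 and LysM-Cre 1, had intervals from 0.728% to 1.06% and from 1.83% to 2.33%, which did not overlap. In TPM the slow share of the 10 genes was 0.415%, 1.11% and 1.07% in controls and 2.28%, 3.32% and 6.84% in LysM-Cre libraries, again without overlap.

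The slow share was set beside the muscle score of each library. Control 1 was lowest and LysM-Cre 3 highest in both. Control 3 and LysM-Cre 1 had like scores of 5.77 and 5.93 and slow shares of 1.5% and 2.37%. LysM-Cre 2 had a lower score of 4.37 than control 3 and a slow share of 3.73%. The relation between share and score was not tested. When each library was left out in turn, the difference was between 1.92 and 4.07 points. Its direction could not change, since every LysM-Cre share was above every control share.

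The troponins, which switch the thin filament on in response to calcium, also exist in slow and fast isoforms and gave another measure of fibre type. The slow isoforms *Tnnt1*, *Tnni1* and *Tnnc1* took 8.17%, 7.86% and 7.90% of troponin reads in controls and 6.41%, 14.4% and 10.01% in LysM-Cre libraries. LysM-Cre 1 was below all controls and the other 2 were above them (exact permutation test, p = 0.4, adjusted 0.578). The slow troponins had a median log2 fold change of 2.22 and the fast ones (*Tnnt3*, *Tnni2* and *Tnnc2*) of 1.93, and 0 of 6 were called by edgeR or DESeq2 or had an unadjusted edgeR p under 0.05. Thus the troponin share did not separate the groups as the slow myosin share did, and the difference between these measures was not tested.

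**Figure D3:**
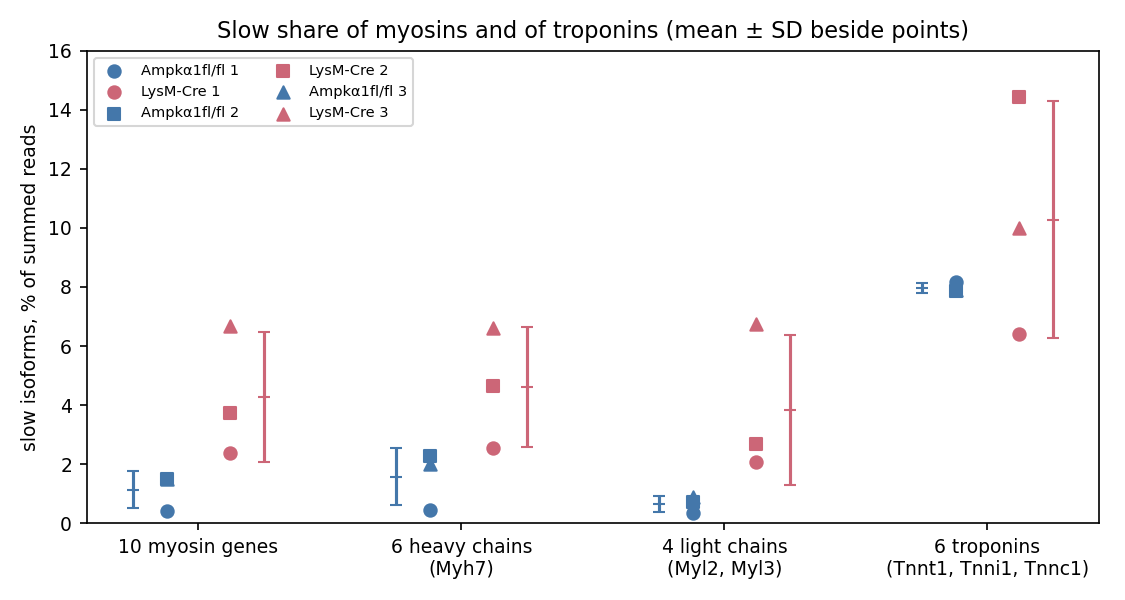
Slow isoforms as a percentage of summed reads in each library, for the 10 myosin genes, the 6 heavy chains, the 4 light chains and the 6 troponins, with mean ± SD of 3 libraries beside the points. Slow myosin shares lie between 0.339% and 2.26% in controls (blue) and between 2.07% and 6.75% in LysM-Cre libraries (red), whereas slow troponin shares of LysM-Cre libraries lie on either side of the controls.

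*Myh7*, *Myl2* and *Myl3* are also expressed in the heart, and other cardiac genes were measured beside them. *Myl7*, the atrial regulatory light chain, had 1 read in control 2 and 0 in the other libraries. *Nppa*, the atrial natriuretic peptide gene, had 2 reads in LysM-Cre 3 and 0 in the others, all under the 3 reads taken as the floor. *Myh6*, the α heavy chain of the heart, had 0, 2 and 5 reads in controls and 5, 8 and 30 reads in LysM-Cre libraries. *Myl4* and *Actc1*, which the heart shares with developing skeletal muscle, were higher, with between 108 and 488 reads and between 71 and 2955 reads per library. The part of cardiac tissue in the slow chain values was not tested.

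Developmental chains took a share of member reads that differed little between the groups. It was 26.7%, 29.5% and 30.5% in controls and 30.3%, 27.0% and 29.6% in LysM-Cre libraries (exact permutation test, p = 0.9, adjusted 0.900). In TPM the share was smaller, since both genes are long heavy chains, at 4.16%, 4.60% and 5.11% in controls and 5.53%, 4.36% and 4.84% in LysM-Cre libraries (exact permutation test, p = 0.6). Of heavy chain reads they took 53.9%, 57.9% and 55.2% in controls and 49.98%, 50.3% and 54.6% in LysM-Cre libraries. The latter means were 55.7% ± 2.05 (SD, n = 3) and 51.6% ± 2.59 (SD, n = 3), lower in 3 of 3 same-numbered pairs, with overlapping groups (exact permutation test, p = 0.2, adjusted 0.520). *Myh3*, the earlier of the 2 developmental chains, took 7.26%, 18.5% and 14.3% of developmental reads in controls and 7.09%, 28.4% and 12.2% in LysM-Cre libraries (exact permutation test, p = 0.9). Its share varied more among LysM-Cre mice than between the group means of 13.3% and 15.9%.

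Fast chains took 72.9%, 69.0% and 68.0% of member reads in controls and 67.3%, 69.2% and 63.7% in LysM-Cre libraries (exact permutation test, p = 0.3, adjusted 0.557). In TPM, which gives the short light chains more weight, the fast share was 95.4%, 94.3% and 93.8% in controls and 92.2%, 92.3% and 88.3% in LysM-Cre libraries, without overlap (exact permutation test, p = 0.1, adjusted 0.325). The class shares of a library add up to a fixed total. The TPM differences were -3.57 points for fast, 3.28 for slow and 0.29 for developmental chains, so the fast result largely restates the slow share. Among heavy chain reads the fast share was 45.6%, 39.8% and 42.9% in controls and 47.5%, 45.1% and 38.8% in LysM-Cre libraries, with no separation (exact permutation test, p = 0.8).

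Within the fast heavy chains *Myh1* (IIx) predominated in each library. It took 79.3%, 78.6% and 71.6% of fast heavy chain reads in controls and 70.3%, 75.4% and 52.5% in LysM-Cre libraries (exact permutation test, p = 0.2, adjusted 0.520). *Myh2* (IIa) took 11.1%, 17.2% and 11.5% in controls and 10.8%, 22.1% and 26.5% in LysM-Cre libraries (p = 0.4 by the exact permutation test). *Myh4* (IIb) took 9.60%, 4.19% and 16.9% in controls and 18.9%, 2.45% and 21.1% in LysM-Cre libraries (p = 0.6 by the exact permutation test). The *Myh1* share was lower in the LysM-Cre library of all 3 same-numbered pairs, and LysM-Cre 3 stood apart with the lowest *Myh1* and the highest *Myh2* share. Without it the *Myh1* share differed by -3.60 points instead of -10.4. No fast heavy chain separated the groups.

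**Figure D4:**
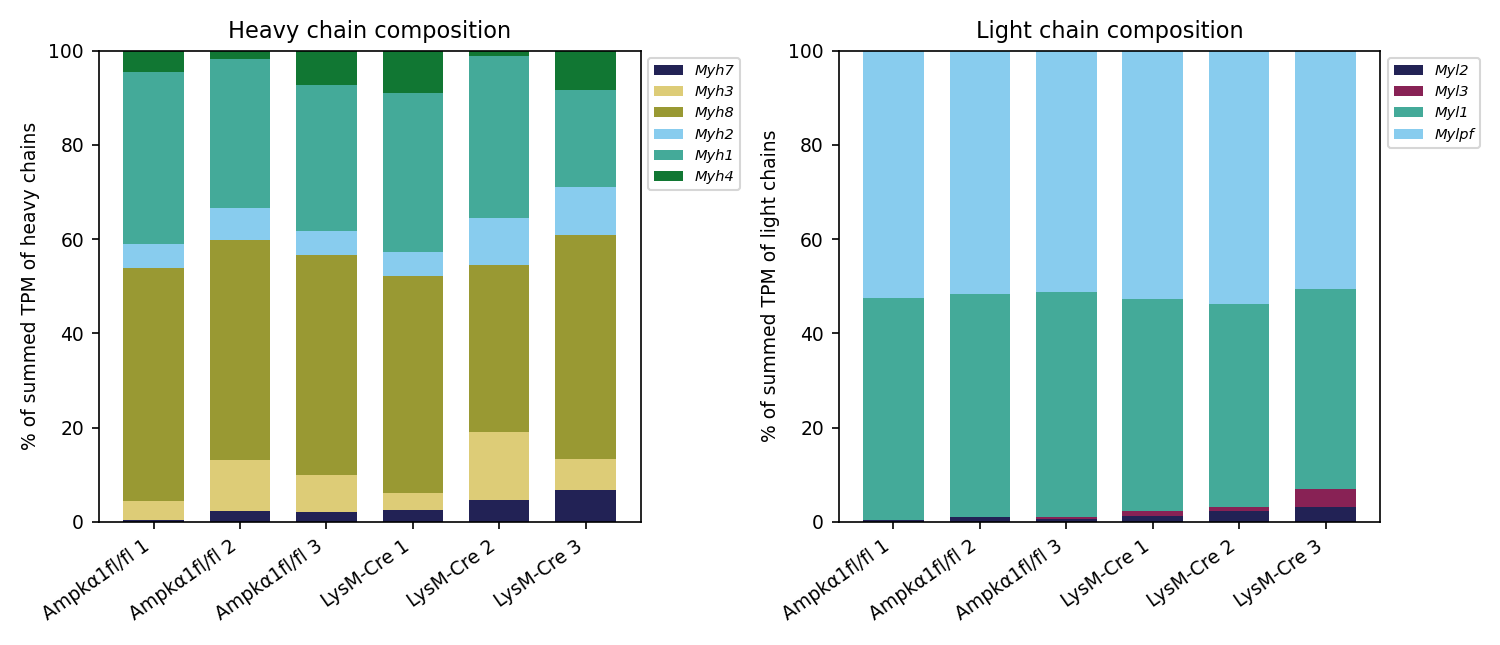
Share of each heavy chain (left) and light chain (right) in the summed TPM of its kind, in percent, for each of the 6 libraries. *Myh8* and *Myh1* fill most of each heavy chain bar and *Mylpf* and *Myl1* most of each light chain bar, and the slow chains at the base reach at most 6.67% and 6.86%, in LysM-Cre 3.

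The heavy chains are close in sequence, and reads that fit more than 1 of them could be divided by the authors' counting. In GENCODE transcripts of GRCm38 they encode between 1935 and 1942 amino acids each. Of all 100-base windows of the transcript, 9.69% of *Myh1* and 9.17% of *Myh2* were identical to a window of another member, mostly of each other, compared with 5.17% of *Myh8* and 3.85% of *Myh4*. The value was 0 for *Myh3*, for the 4 light chain genes and for *Myh7*, so that no slow chain shared such a window. In 50-base windows the values were 26.7% for *Myh1* and *Myh2*, 19.9% for *Myh8* and 18.6% for *Myh4*. They were then 3.66% for *Myh3*, 0.214% for *Myh7* and 0 for the light chains. Read length is not given in the sources used here.

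*Myl1* makes 2 essential light chains from separate promoters, MLC1f with 188 codons and MLC3f with 150. MLC3f took 67.3%, 60.5% and 64.6% of *Myl1* reads in controls and 70.2%, 63.6% and 69.6% in LysM-Cre libraries. It was higher in 3 of 3 same-numbered pairs, but the groups overlapped (means 64.1% ± 3.41 and 67.8% ± 3.66, SD, n = 3, exact permutation test, p = 0.3, adjusted 0.557).

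The reads of *Myl1* were divided in another way that did separate the groups. The table lists some transcripts more than once, with a suffix that in NCBI's annotation format marks a further placement of the same transcript on the assembly. Such entries held 0.504%, 0.160% and 0% of *Myl1* reads in controls and 31.5%, 47.4% and 47.7% in LysM-Cre libraries. *Myl1* was the only member with such entries. Of 518 genes that had them and at least 50 reads in every library, 3.67% had LysM-Cre libraries above controls without overlap. In MLC1f the entries held 1.54%, 0.407% and 0% of reads in controls and 32.4%, 45.3% and 47.9% in LysM-Cre libraries. MLC3f had 0% in each control and 31.4%, 49.0% and 47.9% in LysM-Cre libraries.

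A gap of over 20 points between the groups, a limit set after the values were seen, was found in 6 genes, and all 6 lie between positions 66175202 and 67038891 of chromosome 1 (GRCm38.p6). They are the only 6 genes with such entries and enough reads in that stretch. *Acadl*, a mitochondrial acyl-CoA dehydrogenase, had 0%, 0% and 0.149% in controls and 44.9%, 25.6% and 47.8% in LysM-Cre libraries. *Rpe*, *Kansl1l*, *Lancl1* and *Map2* had at most 0.860% in controls and at least 21.2% in LysM-Cre libraries. Among the other genes, with 14 of them elsewhere on the chromosome, the highest gap with LysM-Cre above was 3.63 points and with LysM-Cre below 11.5 points. Where on the assembly the further copies lie was not read from the sources used here, and the origin of the pattern was not tested.

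The entries bear on the level of *Myl1*. When only first placements were counted, the log2 fold change of *Myl1* was 0.81 instead of 1.64 (edgeR adjusted p = 0.791), and the slow share of light chain reads differed by 4.25 points instead of 3.19. The class shares of the 10 genes moved as well. The fast share then differed by -6.59 points instead of -3.24 (exact permutation test, p = 0.1 in place of 0.3), and the developmental share by 3.00 points instead of 0.12 (p = 0.2 in place of 0.9 by the exact permutation test). The slow share of the 10 genes differed by 3.59 points instead of 3.13. This alternative drops between 31.5% and 47.7% of *Myl1* reads in LysM-Cre libraries and at most 0.504% in controls. The shift from the main differences, to a lower fast share and higher slow and developmental shares, was therefore fixed by the count itself. A higher slow and a lower fast share were already present in the main count. The values and p-values of this alternative are no separate evidence on fibre type, and it was added after seeing the data.

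**Figure D5:**
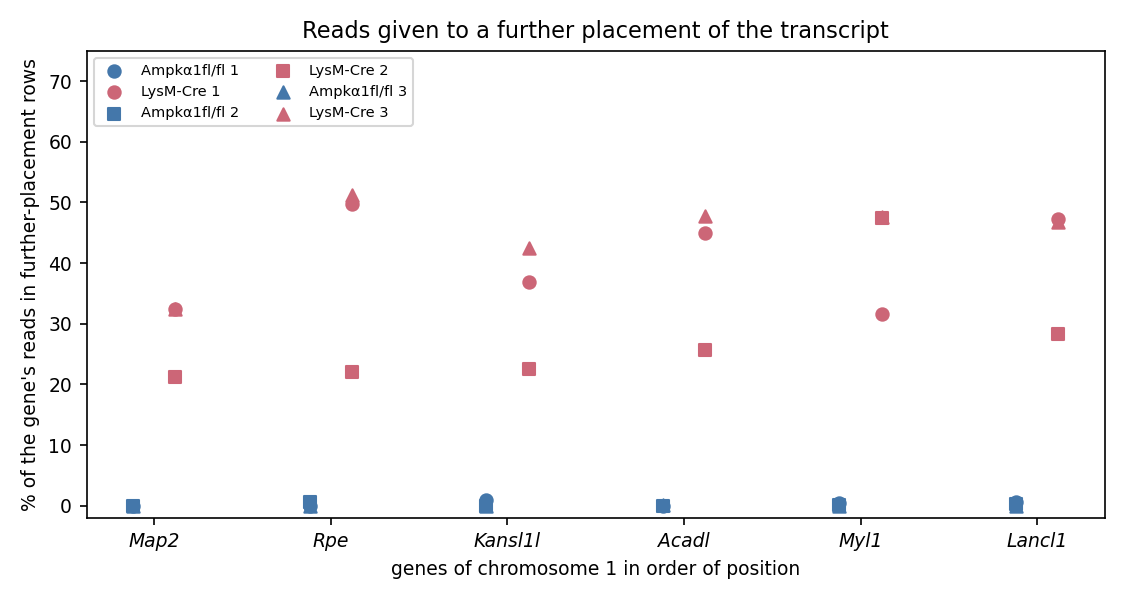
Percentage of a gene's reads in entries for a further placement of its transcripts, for *Myl1* and 5 neighbouring genes of chromosome 1 in order of position. The controls (blue) lie at or below 0.860% and the LysM-Cre libraries (red) between 21.2% and 51.3%.

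Other myosins separated into those that moved with the members and those that did not. Of 11 further muscle myosin genes and myosin kinases or assembly factors, 6 had enough reads to be tested, and 6 of 6 were higher in the LysM-Cre group. By edgeR and DESeq2 0 of them were called, and 2 had an unadjusted edgeR p under 0.05, as had 14.5% of all genes. *Myh13*, the extraocular heavy chain, had only 8, 3 and 9 reads in controls and 15, 16 and 65 in LysM-Cre libraries (log2 fold change 2.23 ± 0.74, SE, edgeR adjusted p = 0.227). *Myl4*, the essential light chain of atrium and embryonic muscle, gave 0.29 ± 0.56 (SE; edgeR adjusted p = 0.864), and *Smyd1*, a methyltransferase needed for myosin assembly, 1.91 ± 0.97 (SE; edgeR adjusted p = 0.436). Of 9 myosins of non-muscle and smooth muscle cells, 4 were higher, with a median log2 fold change of -0.01. By edgeR 0 were called, by DESeq2 1, and 1 had an unadjusted edgeR p under 0.05. The exception in size was *Myl6b*, at 2.15. *Myl6*, *Myl9* and *Myh11*, the smooth muscle heavy chain, were lower without overlap, as were 11.4% of all genes. *Myh9*, the main non-muscle heavy chain, was between 447 and 514 CPM in all 6 libraries, and summed TPM of 4 non-muscle and smooth muscle heavy chains was between 205 and 273. Single chains of low level varied more, as *Myh14* did between 2.24 and 10.03 CPM, and *Myh11* lay between 45.7 and 160 CPM. The members' own ranges over the libraries were between 4.96 and 9.23 on the log2 scale.

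Across the sarcomere and the supply of the fibre the same direction was seen. Of 38 other sarcomere genes, 37 were higher in the LysM-Cre group, against 7050 of all 14261 genes tested. Their log2 fold changes had a median of 1.83. Of 22 genes of excitation, calcium handling and muscle energy supply, 22 were higher, with a median of 1.62. By edgeR and by DESeq2 0 genes of either list were called, and 0 and 1 had an unadjusted edgeR p under 0.05. By likeness of pattern over the 6 libraries, the genes nearest to the mean of the slow class were *Grip2* (r = 0.998), *Reep1* (0.997) and *Xirp1* (0.993). Those nearest to the developmental class were *Lmod3* (r = 0.999), a protein of the thin filament, *Trim72* (0.998), which acts in membrane repair, and *Acta1* (0.997), skeletal α-actin. Those nearest to the fast class were *Ckm* (r = 0.9997), muscle creatine kinase, *Myom2* (0.9996), a protein of the M-band, and *Trim54* (0.999). These r values describe 6 libraries that differ widely in muscle content. Of 13598 genes compared, 174 had r over 0.95 with the slow class, 172 with the developmental and 255 with the fast. The named genes are thus not particular in this.

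Markers of other cells in the tissue were set beside the members. Over all genes, 7050 of 14261 were higher, edgeR called 0.898% and DESeq2 4.77%, and 14.5% had an unadjusted edgeR p under 0.05. Of 14 tested regulators and receptors of developing muscle, 13 were higher, the median log2 fold change was 1.06, and *Ncam1*, an adhesion molecule of developing muscle and nerve, rose by 0.48 ± 0.07 (SE; edgeR adjusted p = 0.0413). The edgeR adjusted p of *Ncam1* was 0.0634 with replicate blocks and 0.0915 with the muscle score as a covariate, so that call was lost in both. Of 10 tendon markers 0 were called by edgeR and 1 by DESeq2, and 1 had an unadjusted edgeR p under 0.05, with a median of 0.04 and summed CPM between 98413 and 108056 in controls and between 92570 and 109794 in LysM-Cre libraries. Of 10 macrophage markers 0 were called by edgeR and 4 by DESeq2, and 7 had an unadjusted edgeR p under 0.05, with a median of -0.25, and summed CPM was between 1100 and 1146 in controls and between 720 and 914 in LysM-Cre libraries. Of 7 red cell markers 6 fell by edgeR, against 1 with replicate blocks and 5 with the muscle score as a covariate, and their summed CPM was between 1997 and 2973 in controls and between 676 and 983 in LysM-Cre libraries. Schwann cell markers varied without regard to group, from 434 to 8549 summed CPM in controls and from 1099 to 3721 in LysM-Cre libraries, with 0 of 6 called by edgeR or DESeq2 and 0 with an unadjusted edgeR p under 0.05. Of 10 interferon response genes 10 were higher with a median of 1.14, 0 were called by edgeR and 8 by DESeq2, and 8 had an unadjusted edgeR p under 0.05. The part of these cells in the myosin values was not tested.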

How the data were processed

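RNA was sequenced on the BGISEQ platform from 3 LysM-Cre; Ampkα1fl/fl mice and 3 Ampkα1fl/fl littermates. The authors deposited, for 65053 transcripts (GRCm38.p6 in the submitters' processing notes), an estimated count of reads, a TPM value scaled to transcript length, and a normalized signal that equals the rounded-up count multiplied by 1 factor per library. The aligner and counting tool are not given in the sources used here. In addition, 6 FPKM columns and 8 group averages were deposited and not used.

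Estimated counts were summed per gene, rounded, and matched to symbols through NCBI Gene identifiers (18049 of 18099). The 14261 genes kept by filterByExpr were tested with edgeR 4.0.16 (TMM scaling, quasi-likelihood test, prior count 0.125, R 4.3.3), with Benjamini-Hochberg adjustment at 0.05 over all of them. SE was taken as the absolute estimate over the root of F. Shares were compared by exact permutation tests over libraries (SciPy 1.17.1), and the smallest p that 3 against 3 allows is 0.1. Depth was between 18076805 and 19479887 reads, and 3 reads were taken as the floor. Alternatives were DESeq2 1.42.0, limma 3.58.1 on log2(TPM + 0.5), RLE and upper-quartile scaling, other count filters, blocks by replicate number, a covariate for muscle score and omission of each library.

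The libraries came from separate mice. Deviations from the group means correlated by 0.184, 0.118 and 0.310 within the 3 same-numbered pairs. Control 1 with LysM-Cre 2 reached 0.501, and the labels state no pairing. Pairs by number were therefore not established, and the replicate block serves only as an alternative. The members and gene lists were chosen with earlier results of these data known. All members, all tested troponins and further muscle myosins, up to 4 genes with the highest CPM of each other list, genes past the threshold and the 3 most alike genes per class were named by rule. *Scx*, *Tnmd*, *Myl6b*, *Myl9*, *Myh11*, *Myh14*, *Actc1*, *Acadl* and the other neighbours of *Myl1* were named after their values were seen, and cardiac markers were fixed with the lists.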

Additional observations from a re-analysis of the deposited data

How the results depend on the processing

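None of the 10 members was called with edgeR or under the other settings, except 1 (*Myl3*) in the fit with a replicate block. The number of genes called was 128, and it was 680 with DESeq2, 47 with the replicate block, 60 with the muscle score as a covariate, 69 with limma on TPM, and between 8 and 276 when 1 library was left out. The covariate turned *Myh4* (-0.43), *Myh8* (-0.23), *Myl1* (-0.24) and *Mylpf* (-0.050) below 0, and no other setting turned a member. The replicate block changed no other member's call. A minimum of 10 counts in every library left *Myh7*, *Myl2* and *Myl3* untested. The differences in slow myosin share kept their direction in every setting. With the replicate block their sign-flip p was 0.25, the smallest that 3 pairs allow. Most settings could not turn them. Leaving out a library cannot while the groups do not overlap, and the replicate block leaves the differences as they were. Normalized counts carry 1 factor per library, and counting first placements alone could not lower the differences. TPM weighs genes by length, and the slow share of the 10 genes then differed by 3.28 points. Leaving out 1 library moved 3 share differences across 0. They ranged from -3.72 to 6.95 points for *Myh3* within developmental chains (reversed at -0.49 and -3.72), from -0.98 to 1.10 for developmental chains of all 10 genes (-0.98, -0.55 and -0.20), and from -0.82 to 3.52 for fast chains among heavy chains (-0.46 and -0.82). Depth limits *Myl3* and *Myl2* in controls 1 and 2, where they had 17 reads at most.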

Other observations

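The genes given here were singled out after their values were seen. Among those of excitation and energy supply *Sln*, sarcolipin, a small regulator of the calcium pump, was at 0.212, 1.20 and 2.36 CPM in controls and 8.08, 2.81 and 26.3 CPM in LysM-Cre libraries. Its groups did not overlap, and the log2 fold change was 3.30 ± 0.98 (SE; edgeR adjusted p = 0.187), compared with the median of 1.62 for its list. *Atp2a2*, the calcium pump of slow fibres that other cells also use, was between 250 and 264 CPM in controls and between 270 and 294 CPM in LysM-Cre libraries, with the lowest log2 fold change of that list, 0.11 ± 0.06 (SE; edgeR adjusted p = 0.446). *Myl6b*, an essential light chain of slow muscle and other cells, had the highest log2 fold change among non-muscle myosins. It was at 1.59, 4.43 and 8.83 CPM in controls and 6.78, 7.57 and 51.6 CPM in LysM-Cre libraries (log2 fold change 2.15 ± 0.94, SE, edgeR adjusted p = 0.361).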
